A study of Mus musculus with 18 samples.

Results

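C/EBPα binding at 60 min was compared with C/EBPα binding at 3 hr post-induction (3 hpi) in pre-B cells on their way to becoming macrophage-like cells. The genome (mouse build mm9, chromosomes 1 to 19) was cut into 12361722 bins of 200 bp, reads were counted at equal depth, and 42806 bins (0.346%) with 10 or more reads at either time point were compared. The study followed transdifferentiation by ChIP-seq, the sequencing of DNA fragments pulled down with an antibody, and the libraries used here number 8 for C/EBPα, 5 for C/EBPβ and 5 for PU.1, with 1 library for each time point sampled. C/EBPβ and PU.1 libraries of 0, 3, 12, 24 and 48 hpi were used, so neither factor has a library at 60 min. All came from C10 cells, a line derived from Haftl pre-B cells that carries C/EBPα fused to the estrogen receptor and tagged with GFP. Induced cultures received β-estradiol (100 nM in the labels, while the methods of the study give the dose in µM) together with IL-3 and CSF-1 at 10 nM, and control cultures received 0.1% ethanol. Both C/EBPα libraries were made with the antibody sc-61. A single cell line with an introduced fusion protein that acts within minutes of hormone limits what the samples can stand for, and the antibody is described for C/EBPα without a distinction between fusion protein and endogenous protein. The library at 60 min was read with 50-base reads on a HiSeq2000 and the library at 3 hpi with 36-base reads on a Genome Analyzer IIx, so that time point and sequencer cannot be told apart in this pair. With 1 library per time point there is no replicate check, no test was run, and the intervals given are 95% intervals that cover counting error only. Neighbouring bins often belong to the same bound site, which makes intervals over many bins too narrow.

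C/EBPα is a leucine-zipper transcription factor that binds DNA as a dimer at a palindrome with TTGC and GCAA half-sites, and it is required for granulocyte and macrophage differentiation. In this cell system estrogen drives the fusion protein into the nucleus, where it meets chromatin that already holds PU.1, an ETS-family factor of both B cells and macrophages, and B cell factors such as EBF1 and E-box proteins. IL-3 acts on cells through STAT factors, which bind palindromes of TTC and GAA.

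Sequences are printed for 12 of the compared bins because the direction of the difference went with short sequence elements. They are mm9 plus-strand sequence, 5′ to 3′, and are named after the gene with the nearest transcription start site (TSS). The first set had more reads at 60 min, and the capitals mark TTCCNGGAA, TTCCNAGAA or TTCTNAGAA on either strand, forms of the STAT palindrome that are described with the results. Each bin printed in this set holds a marked form, as did only 10.3% of all compared bins at least 2-fold higher at 60 min. The C/EBP consensus TTGCNNAA is not marked in this set, although the Hsfy2 bin holds it as TTGCATAA. Serpinh1 lies at chr7:106460001-106460200 (33 reads at 60 min and 0 at 3 hpi), Hsfy2 at chr1:56770001-56770200 (91 and 2), Ppp2r2a at chr14:67676401-67676600 (20 and 0), Atf3 at chr1:193017801-193018000 (52 and 10) and Il7r at chr15:9510401-9510600 (26 and 7).
Serpinh1: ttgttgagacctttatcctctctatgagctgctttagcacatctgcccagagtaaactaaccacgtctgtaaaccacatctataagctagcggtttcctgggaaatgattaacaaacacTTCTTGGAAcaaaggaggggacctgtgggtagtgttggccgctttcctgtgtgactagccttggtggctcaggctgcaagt
Hsfy2: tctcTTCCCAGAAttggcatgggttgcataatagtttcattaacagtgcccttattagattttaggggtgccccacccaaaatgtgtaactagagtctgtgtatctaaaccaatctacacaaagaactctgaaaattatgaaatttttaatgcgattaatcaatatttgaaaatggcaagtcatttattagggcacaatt
Ppp2r2a: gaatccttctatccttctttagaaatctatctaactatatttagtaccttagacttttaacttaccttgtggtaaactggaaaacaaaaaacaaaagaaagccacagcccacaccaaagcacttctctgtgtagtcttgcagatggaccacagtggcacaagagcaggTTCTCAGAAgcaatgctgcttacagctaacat
Atf3: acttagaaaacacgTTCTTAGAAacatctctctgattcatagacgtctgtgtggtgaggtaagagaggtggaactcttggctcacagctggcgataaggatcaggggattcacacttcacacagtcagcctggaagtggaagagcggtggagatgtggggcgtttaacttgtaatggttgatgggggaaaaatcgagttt
Il7r: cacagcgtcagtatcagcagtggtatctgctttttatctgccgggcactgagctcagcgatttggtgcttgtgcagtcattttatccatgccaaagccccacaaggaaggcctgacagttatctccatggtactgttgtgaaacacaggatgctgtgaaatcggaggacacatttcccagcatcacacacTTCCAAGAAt

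The second set had more reads at 3 hpi, and the capitals mark the C/EBP consensus TTGCNNAA on either strand. Each bin printed in this set holds the consensus. Over all compared bins it was present in 27.4% of those at least 2-fold higher at 3 hpi and in 23.9% of those higher at 60 min. Kcne3 lies at chr7:107331001-107331200 (3 reads at 60 min and 92 at 3 hpi), Naip2 at chr13:100953201-100953400 (2 and 75), Ktn1 at chr14:48482801-48483000 (2 and 57), Elane at chr10:79347401-79347600 (5 and 31) and Cdkn1a at chr17:29251001-29251200 (3 and 25). The Kcne3 match has CG at its centre, a form described with the results.
Kcne3: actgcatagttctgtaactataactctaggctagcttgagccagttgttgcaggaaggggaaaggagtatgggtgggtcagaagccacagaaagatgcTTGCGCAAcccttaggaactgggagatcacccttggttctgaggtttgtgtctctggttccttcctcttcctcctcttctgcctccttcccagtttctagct
Naip2: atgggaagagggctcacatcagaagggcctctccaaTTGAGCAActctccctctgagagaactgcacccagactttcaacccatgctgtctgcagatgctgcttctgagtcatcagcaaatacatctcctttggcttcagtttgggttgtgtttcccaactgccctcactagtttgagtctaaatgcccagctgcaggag
Ktn1: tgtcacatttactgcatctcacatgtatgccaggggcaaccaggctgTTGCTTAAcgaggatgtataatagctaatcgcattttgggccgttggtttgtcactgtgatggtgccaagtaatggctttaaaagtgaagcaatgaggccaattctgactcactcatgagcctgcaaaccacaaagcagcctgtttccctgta
Elane: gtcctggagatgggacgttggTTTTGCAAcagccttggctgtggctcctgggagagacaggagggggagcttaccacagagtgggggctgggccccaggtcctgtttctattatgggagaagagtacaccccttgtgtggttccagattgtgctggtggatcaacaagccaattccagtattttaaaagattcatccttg
Cdkn1a: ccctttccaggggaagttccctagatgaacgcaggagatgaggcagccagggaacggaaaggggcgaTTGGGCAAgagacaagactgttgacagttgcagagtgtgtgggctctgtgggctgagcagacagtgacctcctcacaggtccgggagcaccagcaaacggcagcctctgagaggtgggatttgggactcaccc

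A last pair held many reads at both time points, with the same consensus in capitals. Nfe2 lies at chr15:103088801-103089000 (145 reads at 60 min and 184 at 3 hpi) and Plxnc1 at chr10:94537801-94538000 (151 and 170).
Nfe2: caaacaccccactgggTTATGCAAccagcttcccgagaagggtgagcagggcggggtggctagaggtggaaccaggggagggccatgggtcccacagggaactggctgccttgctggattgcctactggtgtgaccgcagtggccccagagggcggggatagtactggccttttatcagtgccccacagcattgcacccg
Plxnc1: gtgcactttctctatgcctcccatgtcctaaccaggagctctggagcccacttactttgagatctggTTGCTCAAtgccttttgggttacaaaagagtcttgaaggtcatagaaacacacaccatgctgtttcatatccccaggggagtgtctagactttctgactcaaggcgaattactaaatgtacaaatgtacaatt

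More bins held a higher count at 3 hpi than at 60 min. After thinning, each library had 10842274 reads, and 7.55% of those of 60 min and 8.40% of those of 3 hpi fell into the compared bins. The count was at least 2-fold higher at 3 hpi in 15323 bins (35.8%) and at least 2-fold higher at 60 min in 8134 bins (19%). The remaining 19349 bins lay within 2-fold, and these 3 classes are used below. Differences of 4-fold or more were found in 6975 bins at 3 hpi and 3035 at 60 min, and of 8-fold or more in 2983 and 1136 bins.

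The lead of 3 hpi was larger in bins with fewer reads, a measure that the choice of bins also used. The median of log2((3 hpi + 1)/(60 min + 1)) was 0.36 (0.34 to 0.38) over all compared bins, with 90% of bins between -2.00 and 2.58. It was 0.65 where the higher of both counts was 10 to 14 reads, 0.42 at 15 to 19, 0.23 at 20 to 29, 0.07 at 30 to 49 and 0.00 at 50 or more reads. Bins higher at 3 hpi and at 60 min made up 45.3% and 18.9% at 10 to 14 reads, 31.9% and 20.01% at 20 to 29, 26% and 21.0% at 30 to 49, and 17.2% and 15.9% of the 5145 bins with 50 or more. Bins that just missed the threshold, with 9 reads, had a median of 0.74 (7349 bins), and those just inside it, with 10 reads, of 0.87 (5197 bins). When bins were chosen with 5 or more reads in one random part of the reads and measured in the rest, the median was 0.083.

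The threshold was reached at both time points in 18656 bins (43.6%), at 60 min only in 8288 (19.4%) and at 3 hpi only in 15862 (37.1%). Where it was reached at both time points, the median log2 ratio was 0.00. The median bin held 12 reads at 60 min and 14 at 3 hpi, and the highest bins held 170 and 270. No read was counted at 60 min in 816 bins and none at 3 hpi in 244. Joined to their neighbours, the bins formed 27075 sites, of which 16304 were 1 bin long, and 9876 sites were 2-fold higher at 3 hpi against 5113 at 60 min.

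**Figure D1:**
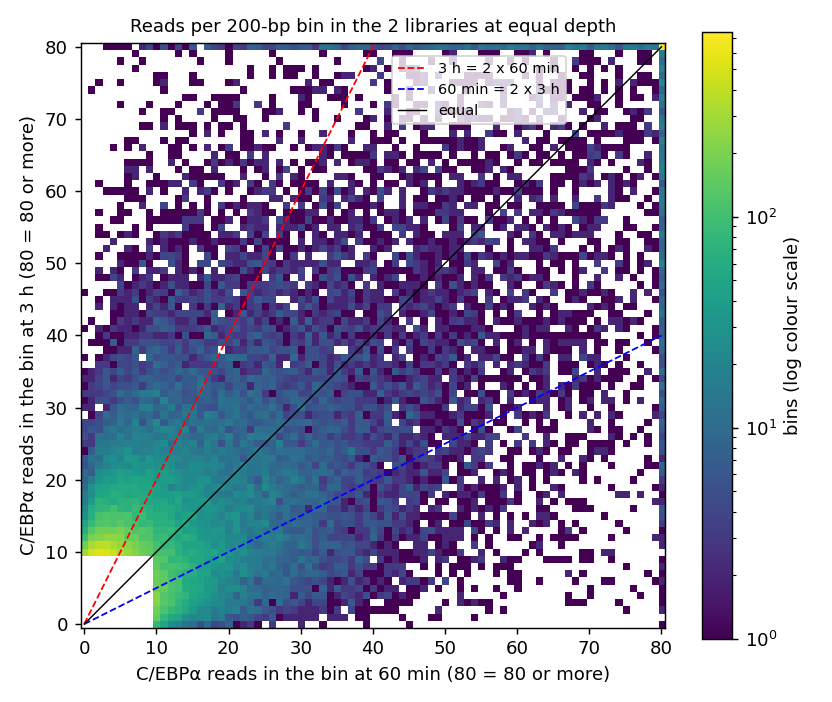
C/EBPα reads in each of the 42806 compared 200-bp bins at 60 min (x axis) and 3 hpi (y axis), with both libraries at 10842274 reads, counts above 80 drawn at 80, and the colour giving the number of bins on a log scale. The dashed lines mark 2-fold differences, beyond which lay 15323 bins on the 3 hpi side and 8134 on the 60 min side.

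The 2 libraries differed in base composition outside the bound bins as well. Over all bins that were not compared, the log2 ratio of the summed reads was -0.45 under 35% GC and at 35 to 40%, -0.16 at 40 to 45%, 0.15 at 45 to 50%, 0.42 at 50 to 55%, 0.65 at 55 to 60% and 0.80 at 60 to 65%. The compared bins followed a similar course, with medians of 0.09 at 40 to 45% GC, 0.39 at 45 to 50%, 0.59 at 50 to 55%, 0.71 at 55 to 60% and 0.83 at 60 to 65%. GC content was under 45% in 54.1% of the bins higher at 60 min, in 38.8% of those within 2-fold and in 33.1% of those higher at 3 hpi. After division by the ratio of the other bins in the same GC class, 13729 bins were 2-fold higher at 3 hpi and 8487 at 60 min, and the median was 0.24. Chromosomes differed too. The summed ratio of the other bins was lowest on chromosomes 12 (-0.29), 18 (-0.21) and 5 (-0.20) and highest on chromosomes 2 and 11 (0.12 each), and over 500 blocks of 5 Mb it ran from -0.80 to 0.58. Chromosome 12 held 4.51% of the reads at 10 min and 4.50% at 60 min, both read with 50 bases on the HiSeq2000, 3.83% at 0 hpi and 3.73% at 3 hpi, both read with 36, and 4.39% in the PU.1 library of 0 hpi, also read with 36. The distance between reads of opposite strands, which follows fragment length, was 175 bp at 60 min and 107 bp at 3 hpi. Values within GC classes are given below for the STAT, C/EBP, MEF2-type, RUNX, PU.1 and AP-1 elements and for PU.1 reads, while the remaining elements are given over all compared bins.

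**Figure D2:**
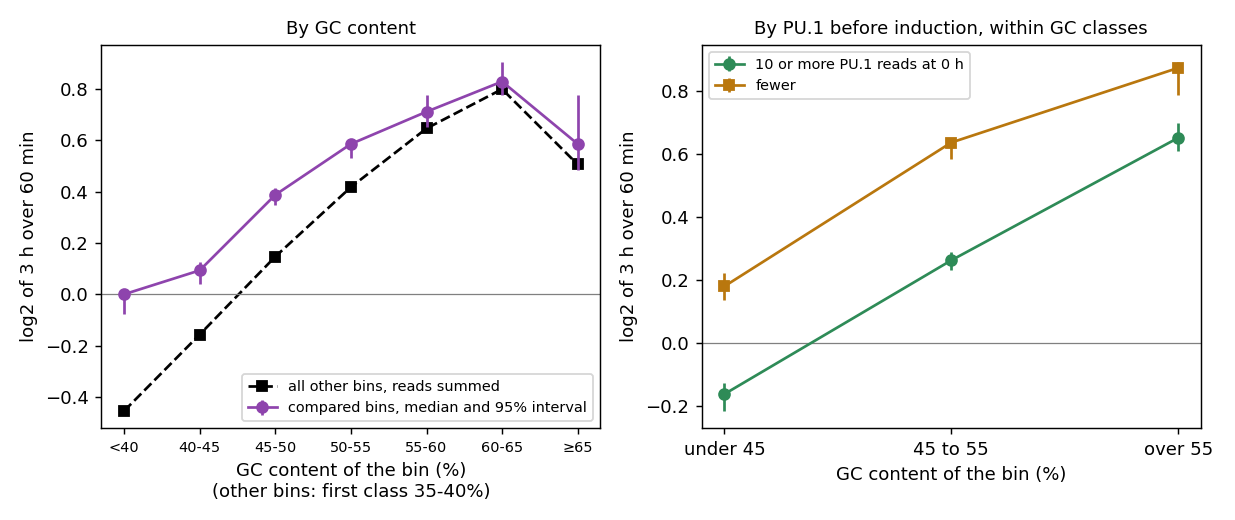
Log2 of C/EBPα reads at 3 hpi over 60 min by GC content of the 200-bp bin: left, medians of the compared bins with 95% intervals (circles) and the ratio of reads summed over all other bins (squares); right, medians with 95% intervals for compared bins with 10 or more PU.1 reads at 0 hpi and with fewer, in 3 GC classes. Over the classes drawn, both curves on the left rise with GC up to 65%, from -0.45 at 35 to 40% to 0.80 for the other bins, and are lower in the last class, and on the right bins with PU.1 lie lower in each class.

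Bins with a STAT palindrome had more reads at 60 min. TTCNNNGAA, on either strand, was present in 15.3% (14.5 to 16.1) of the bins higher at 60 min, in 6.86% of those within 2-fold and in 4.37% (4.05 to 4.71) of those higher at 3 hpi. All bins of chromosomes 1 to 19 without missing bases held it in 7.36%. The difference was concentrated in 3 forms, TTCCNGGAA, TTCCNAGAA and TTCTNAGAA, that were picked after the values of the single 9-letter palindromes were seen. One of them occurred in 1758 compared bins, namely 10.3% (9.63 to 11) of the bins higher at 60 min, 3.33% of those within 2-fold and 1.81% (1.60 to 2.03) of those higher at 3 hpi, against 2.98% of all bins. Of these 1758 bins, 47.6% were 2-fold higher at 60 min and 15.8% at 3 hpi, beside 19% and 35.8% of all compared bins.

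The median log2 ratio was -0.78 (-0.89 to -0.70) in bins with one of the 3 forms and 0.40 in bins without. The same order was found within each GC class. With and without a form it was -1.19 and 0.00 under 40% GC, -1.12 and 0.14 at 40 to 45%, -0.71 and 0.42 at 45 to 50%, -0.44 and 0.59 at 50 to 55%, and 0.24 and 0.77 at 55% or more. The other 1482 bins with TTCNNNGAA, in which the letters beside the central one differ, had a median of 0.00. Among single palindromes the median was -1.10 for TTCCAAGAA (226 bins), -1.0 for TTCTAAGAA (268), -0.88 for TTCTCAGAA (370) and -0.77 for TTCCAGGAA (361), but 0.00 for TTCAATGAA (80) and 0.12 for TTCACTGAA (150). The split into forms was not clean. TTCCCGGAA, which belongs to TTCCNGGAA, had a median of 0.09 (46 bins), and TTCAAAGAA, which belongs to none of the 3 forms, of -0.38 (197 bins, 33.5% higher at 60 min). TTCC read on the other strand is GGAA, which is also part of the PU.1 element GAGGAAGT, so the searches share letters.

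The lower ratio at the STAT forms was seen with and without the other elements. Bins that also held the C/EBP consensus had a median of -0.69 (472 bins) and those that did not of -0.86 (1286 bins). With 10 or more PU.1 reads at 0 hpi over the bin and its neighbours it was -0.47 (522 bins), and with fewer -1.0 (1236 bins). Within 1 kb of a TSS it was -0.17 (-0.46 to 0.15, 153 bins), and farther away -0.87 (1605 bins). Without chromosomes 5, 12 and 18 it was -0.75, and in bins with 10 or more reads at both time points it was -0.35 with a form and 0.02 without. In the plot of motif position, the matches of the 60 min class peak under the highest bin of the site. Here a site takes the class of its highest bin. The matches were found in 3.55% and 3.38% of 5300 sites of the 60 min class in the 50 bp on either side of the centre, and in 0.717% to 1.15% in the steps more than 200 bp away. At 9738 sites of the 3 hpi class, the same central steps held a match in 0.411% and 0.472%, below the 0.575% to 0.832% more than 200 bp away.

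Levels across libraries are given as normalised reads, the reads of a bin or site per 10000000 counted reads of its library. The 30 min library, which did not choose the bins, gave the same order as that of 60 min. Bins with a STAT form held 21.3 normalised C/EBPα reads at 30 min, beside 15.8 in compared bins without a form. At 3 hpi they held 15.1 beside 19.8. At 12 hpi the means were 13.4 and 13.7, and for C/EBPβ at 3 hpi 7.58 and 9.26. The level above that of the other bins lay in the 30 and 60 min libraries, both of 50-base reads, while the 10 min library of the same read length gave 5.51 and 5.35.

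**Figure D3:**
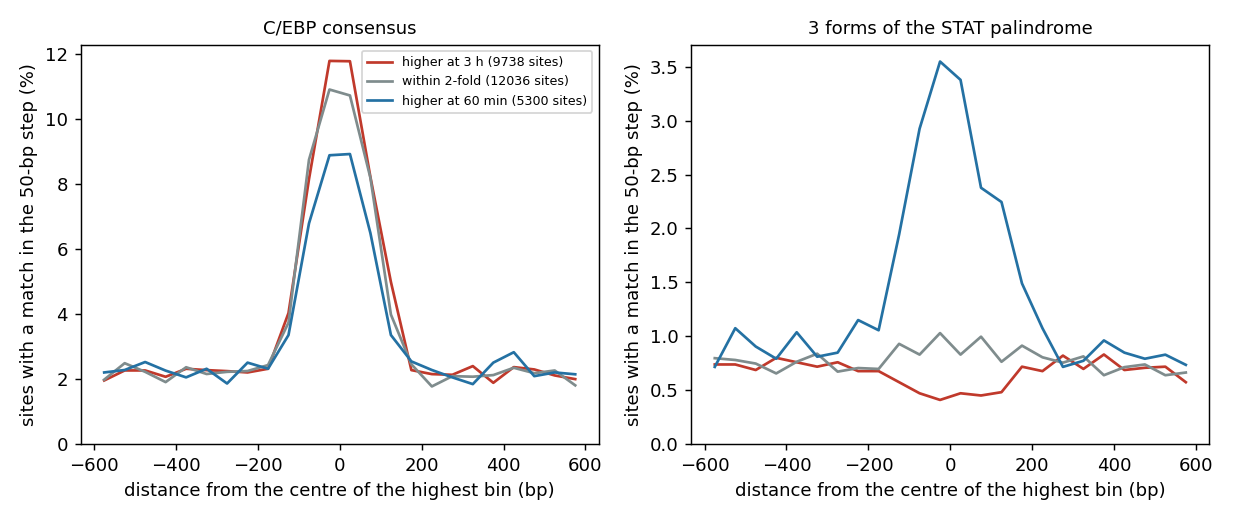
Percent of joined sites with a match to TTGCNNAA (left) or to 1 of the 3 STAT forms (right) in each 50-bp step, by distance in bp from the centre of the site's highest 200-bp bin, for sites higher at 3 hpi (red), within 2-fold (grey) and higher at 60 min (blue), each site classed by that bin. The C/EBP consensus peaks in the middle in all 3 classes, while the STAT forms peak there in the 60 min class, at 3.55% against 0.717% to 1.15% more than 200 bp away.

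The C/EBP consensus leaned to 3 hpi except in GC-rich bins. TTGCNNAA was found in 27.4% (26.7 to 28.1) of the bins higher at 3 hpi, 26.6% of those within 2-fold, 23.9% (23.0 to 24.8) of those higher at 60 min and 9.28% of all bins. Among bins under 45% GC, the shares were 35%, 31.6% and 26.7%, and at 45 to 55% GC they were 26.9%, 24.4% and 20.9%. The order turned over 55% GC, with 13.6% at 3 hpi, 19.1% within 2-fold and 18.2% at 60 min. A form with CG in the middle, TTGCGNAA, which is contained in TTGCNNAA, stood apart. It was chosen after a count of all 7-letter words, in which words with GCG or CGC led the tilt to 3 hpi, for example ATTGCGA in 1.42% of the bins higher at 3 hpi and 0.406% of those higher at 60 min. Without TTGCGNAA, the consensus was found in 22.6% of the bins higher at 3 hpi, 23.2% of those within 2-fold and 22.5% of those higher at 60 min. Within GC classes under 55% it still leaned to 3 hpi. The shares at 3 hpi and 60 min were 31.1% and 28.1% under 40% GC and 28.1% and 23.4% at 40 to 45%. They were 24.4% and 21.2% at 45 to 50% and 18.7% and 16.9% at 50 to 55%. Intervals overlapped under 40% and at 50 to 55%. At 55% GC or more the shares were 11.2% and 14.5%. TTGCGNAA occurred in 4.84% (4.51 to 5.19) of the bins higher at 3 hpi, 3.31% of those within 2-fold, 1.39% (1.15 to 1.67) of those higher at 60 min and 0.173% of all bins. The median ratio of its 1496 bins was 0.89 (0.80 to 0.98), against 0.35 in bins with another form of the consensus and 0.34 in bins with none.

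The CG form went with 3 hpi in every GC class under 55%, with medians of 0.72, 0.93, 1.0 and 1.07 in rising order of GC, beside -0.04, 0.05, 0.36 and 0.54 without it. At 55% GC or more the order turned, with 0.35 beside 0.77. Farther than 1 kb from a TSS the median was 1.0, while within 1 kb it was 0.21 beside 0.59 for bins without the form. With 10 or more PU.1 reads at 0 hpi, bins with and without the form had the same median of 0.21, and with fewer PU.1 reads 1.0 and 0.44. In bins with 10 or more C/EBPα reads at both time points the median was 0.25 with the form (714 bins) and 0.00 without. C/EBPβ was also more abundant in bins with the CG form, and both C/EBP factors were so before induction. At 0 hpi these bins held 9.14 normalised C/EBPα reads and 7.33 of C/EBPβ, beside 3.69 and 4.08 in the remaining bins. The C/EBPα libraries of 50-base reads were closer in both sets of bins, with 6.61 beside 5.31 at 10 min, 16.9 beside 16.0 at 30 min and 19.3 beside 17.4 at 60 min, while those of 36-base reads gave 27.3 beside 19.4 at 3 hpi and 18.4 beside 13.5 at 12 hpi. The higher C/EBPα level in bins with the CG form was thus seen at 0 hpi and again from 3 hpi on, in libraries of 36-base reads. It was smaller in the libraries of 50-base reads between them. The part of read length was not tested. Bins with the CG form held 28.2 normalised C/EBPβ reads at 24 hpi and 41.7 at 48 hpi, against 11.1 and 14.6 in the remaining bins, and 4.17 PU.1 reads at 0 hpi against 10.6.

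A palindrome of CTA and TAG with 4 unspecified bases between them went with 60 min. It is called MEF2-type here, although it covers more than the sites of MEF2 factors. It was chosen because AT-rich words such as AAAAATA led the words tilted to 60 min (12.8% of the bins higher at 60 min and 4.99% of those higher at 3 hpi). The MEF2-type element was present in 5.73% of the bins higher at 60 min, 3.41% of those within 2-fold and 2.64% of those higher at 3 hpi. Its share was 3.57% of all compared bins and 3.39% of all bins. The median of its 1529 bins was -0.14 beside 0.38 without it. Within GC classes the order was the same, with -0.54 beside 0.00 under 40% GC and -0.01 beside 0.40 at 45 to 50%. The AT-rich palindrome of TAA and TTA with the same spacing gave 0.15 beside 0.37.

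Elements of RUNX1 and EBF1, factors already present in pre-B cells, were rarer in the bins higher at 3 hpi. The RUNX element TGTGGTT was found in 6.68% of these bins and in 10.3% of those higher at 60 min, and the EBF1 palindrome TCCCNNGGG in 5.62% and 8.18%. The RUNX shares at 3 hpi and 60 min were 7.06% and 11% under 45% GC, 6.87% and 9.90% at 45 to 55%, and 5.32% (4.47 to 6.28) and 6.45% (4.48 to 8.93) over 55%, where the intervals overlap. Bins with the EBF1 palindrome had a median of 0.09 beside 0.38 without it, although their GC content was higher (50.5% beside 46.5%). The PU.1 element GAGGAAGT (4.07% at 3 hpi and 3.11% at 60 min), the AP-1 element TGACTCA (6.08% and 4.78%) and the E-box CAGCTG (16.2% and 13.6%) leaned the other way. Bins within 2-fold held the PU.1 element in 4.59%, above both directions, the AP-1 element in 5.83% and the E-box in 16.1%. Bins with the E-box had a higher GC content (49.5% beside 46.0%), and its part was not tested. Intervals overlapped for the PU.1 element in each GC class. Its shares under 45% GC were 3.29% (2.82 to 3.82) at 3 hpi and 2.93% (2.45 to 3.47) at 60 min. At 45 to 55% GC they were 4.45% and 3.44%, and over 55% they were 4.48% and 2.54%. For the AP-1 element intervals overlapped over 55% GC, with 5.00% (4.18 to 5.93) and 4.10% (2.56 to 6.20). They also overlapped under 45%, at 5.34 to 6.66% and 4.18 to 5.47%. At 45 to 55% GC the AP-1 intervals were apart, at 5.96 to 7.07% and 4.15 to 5.67%. The octamer ATGCAAAT, bound by OCT factors, was present in 1.06% and 2.26%, and the SP/KLF element GGGGCGGGG in 0.927% and 0.762%. All bins held GAGGAAGT in 1.20%, TGACTCA in 3.14%, TGTGGTT in 4.73%, TCCCNNGGG in 1.87%, CAGCTG in 7.37%, ATGCAAAT in 1.70% and GGGGCGGGG in 0.354%.

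PU.1 binding before induction went with a lower ratio of 3 hpi over 60 min. The median log2 ratio was 0.69 in bins with 0 or 1 PU.1 read at 0 hpi, 0.51 with 2 to 4, 0.26 with 5 to 9, 0.23 with 10 to 19 and 0.18 with 20 or more. Of the bins with 20 or more PU.1 reads, 26.7% were higher at 3 hpi and 14.9% at 60 min, and of those with 0 or 1 read 45.1% and 20.7%. Median C/EBPα counts at 60 min and 3 hpi rose with PU.1 as well. They were 10 and 13 with 0 or 1 PU.1 read and 15 and 16 with 20 or more, and the part of read level was not tested. Within GC classes the median with 10 or more PU.1 reads and with fewer was -0.16 and 0.18 under 45% GC, 0.26 and 0.64 at 45 to 55%, and 0.65 and 0.87 over 55%. Under 45% GC the bins with PU.1 thus leaned to 60 min, with 24.4% of them higher at 60 min and 19.5% at 3 hpi. At least 10 PU.1 reads were found in 41.8% of the bins within 2-fold, 26.8% of those higher at 3 hpi and 28.5% of those higher at 60 min. The order of the last pair turned when 4-fold differences were used (23.0% and 20.2%). The C/EBP consensus and PU.1 together divided the bins further. The median was 0.08 with both, 0.24 with PU.1 alone, 0.59 with the consensus alone and 0.41 with neither.

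The other C/EBPα libraries separated the classes in the same direction. Bins higher at 3 hpi held on average 2.22 normalised reads at 10 min, 4.75 at 30 min, 12.4 at 12 hpi, 9.34 at 24 hpi and 7.86 at 48 hpi. Bins higher at 60 min held 5.79, 19.5, 5.20, 3.85 and 3.35 in the same libraries. At 0 hpi, before induction, both were low (3.31 and 2.41). Normalised reads were higher at 12 hpi than at 30 min in 73.8% of the bins higher at 3 hpi, 35.9% of those within 2-fold and 10.9% of those higher at 60 min. The libraries of 10, 30 and 60 min share sequencer and read length, as do those of 0, 3, 12, 24 and 48 hpi, so this split follows the sequencer as well as the time.

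All libraries of C/EBPβ (40-base reads) and PU.1 (36-base reads) used here came from the Genome Analyzer IIx. Normalised C/EBPβ reads were 3.60 at 0 hpi, 8.32 at 3 hpi and 16.1 at 48 hpi in the bins where C/EBPα was higher at 3 hpi. In the bins higher at 60 min they were 2.82, 4.13 and 5.65. At least 5 C/EBPβ reads at 3 hpi were found in 37.1% of the former, 13.9% of the latter and 49.6% of the bins within 2-fold. The PU.1 means in the same classes were 7.84 and 7.74 at 0 hpi and 11 and 9.51 at 3 hpi. The bins within 2-fold had the highest mean of C/EBPβ, with 19.4 at 48 hpi, and of PU.1, with 17.8 at 3 hpi.

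**Figure D4:**
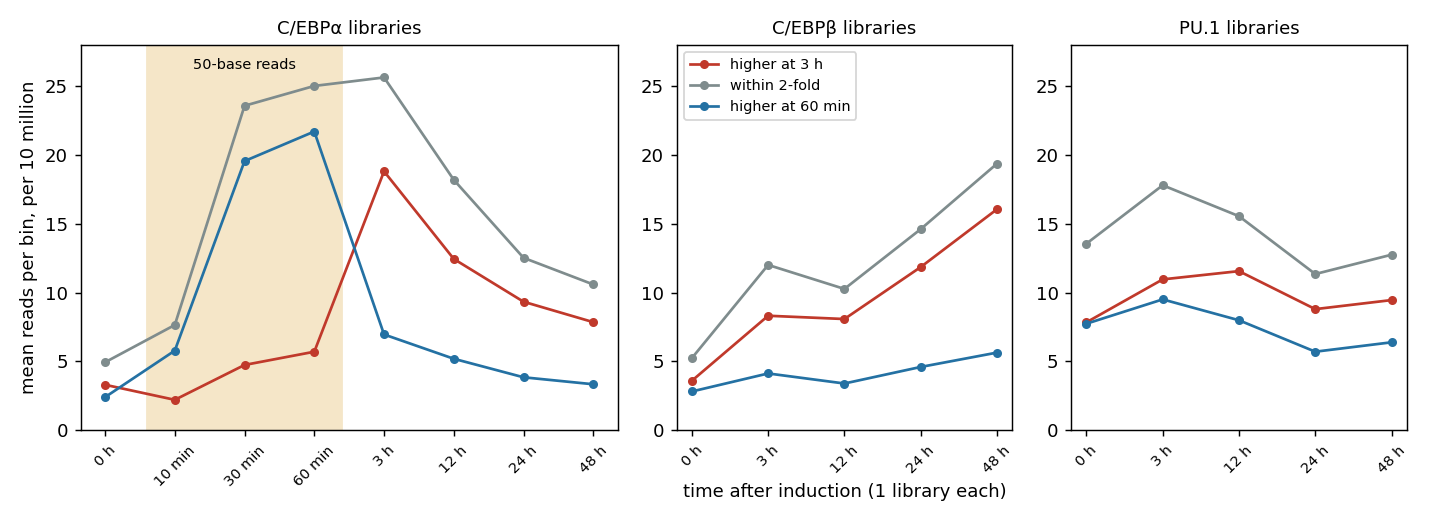
Mean normalised reads per bin (per 10000000 reads) in the PU.1, C/EBPβ and C/EBPα libraries (1 library per time point, no error bars) for compared bins higher at 3 hpi (red), within 2-fold (grey) and higher at 60 min (blue). The shaded C/EBPα libraries of 10, 30 and 60 min were read with 50 bases; the 60 min class goes from 19.5 at 30 min to 5.20 at 12 hpi while the 3 hpi class goes from 4.75 to 12.4.

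Bins near genes leaned to 3 hpi. Within 1 kb of a TSS lay 11.5% of the bins higher at 3 hpi, 10.8% of those within 2-fold and 6.42% of those higher at 60 min, and beyond 100 kb 10.9%, 12.5% and 18.1%. The median ratio was 0.59 within 1 kb, 0.46 at 1 to 10 kb, 0.32 at 10 to 100 kb and 0.00 beyond. GC content fell along the same order, with medians of 53.0%, 47.0%, 46.0% and 44.0%, and its part in this order was not tested. Introns held 45.3% of the bins higher at 3 hpi and 48.9% of those higher at 60 min, coding exons 2.75% and 1.27%, and UTRs 3.94% and 2.21%.

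The 12 sites with the largest ratio in favour of 3 hpi held 0 to 5 reads at 60 min and 32 to 118 at 3 hpi. These counts, on which the sites were ranked in both directions, are those of 1 random thinning of the 60 min library, and normalised reads use all its reads. Upstream of Pik3r1, which encodes the regulatory subunit of PI3 kinase, a site 79.3 kb from the TSS had 0 reads at 60 min and 101 at 3 hpi, at least 33.7-fold more with a floor of 3 reads. It was low again at 12 hpi, with 10.3 normalised C/EBPα reads beside 93.2 at 3 hpi. An intronic site 3.89 kb from the TSS of Kcne3, a potassium channel subunit, held 3 and 92 reads. In normalised C/EBPα reads it had 39.3 at 0 hpi, 4.95, 9.49 and 8.42 at 10, 30 and 60 min, 84.9 at 3 hpi, 122 at 12 hpi and 60.6 at 48 hpi, so that the levels of 60 min and 3 hpi lay closer over all reads than in the thinned counts. The site was higher before induction than in the 3 libraries of 50-base reads. At an intronic site 13.8 kb from the TSS of Naip2, an inflammasome sensor of bacterial proteins in macrophages, 2 and 88 reads were counted, and 130 normalised reads at 12 hpi. The site 17.5 kb upstream of Kcnip1 had 5 and 118 reads, and sites near Atp8a2 (1 and 106), Ktn1 (2 and 67), Nrg1 (0 and 38), Slc27a2 (0 and 37), Far2 (0 and 34) and Gm505 (0 and 32) completed the intronic and intergenic ones. The remaining pair, nearest to the TSS of Erlin1 (0 and 50 reads, 0 and 37 reads), lay on exons of Chuk, which encodes the kinase IKKα. Of the 12 sites, 1 held TTCNNNGAA (8.33%), the Erlin1 site with 37 reads, near the 11.4% of all sites.

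The 12 sites with the largest ratio in favour of 60 min held 30 to 285 reads at 60 min and 0 to 11 at 3 hpi. An intronic site 41.6 kb from the TSS of Serpinh1, a collagen chaperone gene, had 45 reads at 60 min and 0 at 3 hpi, at least 15-fold more at 60 min. Near Hsfy2 156 and 11 reads were counted, and near Med9, a Mediator subunit, 128 and 8. The site near Slc25a13 held 125 and 7 reads, that near Cpeb2 74 and 3 and that near Gm10710 59 and 1. These sites were occupied already at 30 min, with 73.5 to 166 normalised C/EBPα reads at the 5 of them from Hsfy2 to Gm10710, and held at most 12.9 at 48 hpi. Cpeb2 lies on chromosome 5. Ppp2r2a (30 and 0), Serpinb13 (35 and 0) and Ppic (152 and 4) were also among the 12, as were a pair of sites in Myc. Of the 12 sites, 5 held 1 of the 3 STAT forms, against 0 of the 12 largest sites of 3 hpi, 14.4% of all sites higher at 60 min, 2.33% of those higher at 3 hpi and 6.32% of all sites. The C/EBP consensus was held by 5 of these 12 sites and by 4 of the 12 largest sites of 3 hpi. Its shares were 32.6% of all sites higher at 60 min, 39.3% of those higher at 3 hpi and 38.5% of all sites.

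At Myc the reads kept to the exons, and at Chuk they were denser in exons than in introns. Myc, the growth regulator that drives cell division, had 285 and 11 reads in an exonic site 0.323 kb from the nearest TSS and 214 and 10 in one 2.12 kb from it. After thinning, its exons held 490 reads at 60 min (180 per kb), beside 8.82 per kb in its introns, and 35 at 3 hpi. In normalised reads the exons held 139 at 30 min, 452 at 60 min (here from the thinned reads), 32.3 at 3 hpi and 75.4 at 12 hpi. The exons of Chuk held 316 reads at 3 hpi (62.1 per kb, beside 11.5 in introns) and 20 at 60 min. Its longer introns held 335 reads at 3 hpi and 168 at 60 min. What gave the higher read density in exons was not tested. In a check of 16583 genes that was added after these sites were seen, Ppic (114 exon reads at 60 min and 8 at 3 hpi) and Zfp51 (90 and 21) met the same criteria.

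Among the 8 sites with the most reads in both libraries, 6 were high in all 18 libraries, including those before induction. The largest, on chromosome 17 and nearest to Pgk2, held 1799 reads at 60 min and 1805 at 3 hpi, 4 sites at Sfi1 held between 389 and 754, and that at Gm10800 held 295 and 570. The largest site at Sfi1 held 796 normalised reads of C/EBPα, 693 of C/EBPβ and 633 of PU.1 at 0 hpi. The site near Fam101b (346 and 505 reads) and the site near Plxnc1 (376 and 474) were low in C/EBPα before induction, with 24.3 normalised reads each at 0 hpi. PU.1 reads at 0 hpi were 251 at the Plxnc1 site and 10.2 at the Fam101b site. Without bins that were high in all 3 factors at 0 hpi, 15235 bins were higher at 3 hpi and 8103 at 60 min.

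The genes with the most bins of 1 direction mostly had many bins in all, to be read against 35.8% and 19% of all compared bins. The most bins higher at 3 hpi were found at Foxp1, a transcription factor of B cell and macrophage development, with 36 of 93 bins (9 were higher at 60 min), and at Runx1, with 33 of 84 (13), both near the share of all bins. Trib1, a pseudokinase that targets C/EBPα for degradation, had 34 of 70 (7), Irg1, an immune-induced mitochondrial enzyme, 31 of 52 (3) and Ebf1 24 of 55 (5). The most bins higher at 60 min were found at Sfi1, high in all libraries, with 54 of 313 bins, which is below the share of all bins. Cited2 had 31 of 88 bins higher at 60 min (15 were higher at 3 hpi), Auts2 22 of 40 (4), the MEF2 family gene Mef2c 21 of 65 (12) and Gm17384 20 of 24 (0). Auts2 and Gm17384 lie on chromosome 5, where the ratio of the other bins was low.

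Gene groups were read through the bins whose nearest TSS belonged to a listed gene, and each share stands beside the 35.8% of all compared bins that were higher at 3 hpi and the 19% that were higher at 60 min. The 5 genes of the C/EBP family had 41 bins, 56.1% higher at 3 hpi and 14.6% at 60 min, with a median ratio of 1.05 and a GC content of 57.5%. Most lay at Cebpb, which encodes the related factor C/EBPβ, with 33 bins of which 21 were higher at 3 hpi and 1 at 60 min. Its site 65.3 kb downstream held 196 and 311 reads, the site at 71.3 kb 107 and 185, the site at 21.9 kb, which holds TTGCGNAA, 23 and 76, and the site at 89.1 kb 4 and 30. The site on the UTR of Cebpb leaned the other way, with 59 and 31 reads. Of the 7 bins at Cebpg 4 were higher at 60 min and 2 at 3 hpi. Cebpg had a promoter site with 64 reads at 60 min and 13 at 3 hpi, and Cebpa itself had 1 bin, in its coding exon, with 13 and 5 reads. No compared bin lay nearest to Cebpd or Cebpe.

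Myeloid transcription factors had 235 bins, of which 37.4% were higher at 3 hpi, near the 35.8% of all compared bins, and 14% at 60 min, below 19%. Nfil3, a leucine-zipper factor, had 9 of its 11 bins higher at 3 hpi and none at 60 min, and the site 4.66 kb upstream held 6 and 43 reads. At Mitf, a factor of melanocytes and osteoclasts, a site 1.15 kb upstream with a STAT form held 40 and 7 reads. At Sfpi1, which encodes PU.1, the intronic site 0.753 kb from the TSS held 207 and 279 reads, that 1.25 kb upstream 95 and 85, and that over a UTR 51 and 79. None of the 12 bins at Sfpi1 was 2-fold higher at 60 min and 5 were at 3 hpi. At Nfe2, a factor of megakaryocytes and erythroid cells, the promoter held 301 and 365 reads, while a site 1.67 kb upstream with a STAT form held 28 and 5.

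The AP-1 and small Maf genes had 88 bins, 43.2% higher at 3 hpi (35.8% of all compared bins) and 20.5% at 60 min, near the 19% of all. At Fos 7 of 12 bins were higher at 60 min, and at Jun, its partner in the AP-1 dimer, 16 of 26 were higher at 3 hpi. The Fos sites 26.1 kb upstream (185 and 43 reads) and 4.94 kb upstream (157 and 68) were higher at 60 min, and those 15.5 kb (12 and 40) and 16.7 kb (21 and 51) downstream were higher at 3 hpi. The upstream site at 26.1 kb held 168 normalised C/EBPα reads at 30 min and 13.7 at 12 hpi, and the downstream site at 15.5 kb held 9.49 and 89.2. Fos lies on chromosome 12, where the ratio of the other bins was lowest. At Atf3, a stress-induced repressor, the site with a STAT form printed above was part of a site with 82 and 17 reads, and Batf3 had 5 of 10 bins higher at 60 min and none at 3 hpi.

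The B-lineage transcription factors had 283 bins, and their shares of 33.6% higher at 3 hpi and 19.8% at 60 min were near the 35.8% and 19% of all compared bins. The genes of the pre-B receptor and its signalling had 121 bins, with both shares lower (24.8% and 14.9%). Pax5, which keeps B cell identity, had 8 of 11 bins higher at 3 hpi and none at 60 min, with 6 and 38 reads at a site 117 kb into the gene. Bach2 had 13 of 24 bins higher at 3 hpi, Foxo1 9 of 14 and Ebf1 24 of 55. An intronic site 30.1 kb from the TSS of Ikzf1, which encodes Ikaros, held 10 and 93 reads and 182 normalised reads at 12 hpi. Tcf12, an E protein, had 7 of 11 bins higher at 60 min and 1 at 3 hpi, and Tcf4, another, 11 and 6 of 38. Near Lef1 a site held 29 and 3 reads. At Il7r, the receptor of the pre-B cell growth factor IL-7, the site with the printed STAT form, 50.9 kb upstream, held 47 and 12 reads, and an intronic site 1.30 kb from the TSS of Vpreb3 held 8 and 59.

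Macrophage receptor genes had 267 bins, 28.8% of them higher at 3 hpi, below the 35.8% of all compared bins, and 18.4% at 60 min, near 19%. Csf1r, the receptor of CSF-1, had an intron site 2.77 kb from the TSS with 20 reads at 60 min and 177 at 3 hpi, 8.85-fold more (5.56 to 14.8). It held 69.7 normalised PU.1 reads at 0 hpi and 147 at 3 hpi, and lies on chromosome 18. Emr1, the gene of the macrophage marker F4/80, had an upstream site with 181 and 39 reads, and Tgfbr2 had 12 of 43 bins higher at 60 min and 6 at 3 hpi. Cd68, a lysosomal marker of macrophages, had all 3 bins higher at 3 hpi, as did the Fc receptor chain Fcer1g. At Tlr4, the receptor of endotoxin, the intron site at 24.7 kb held 68 and 91 reads, with 3.71 normalised reads at 10 min and 125 at 12 hpi. A site 27.1 kb upstream held 25 and 3. At Tyrobp, a signalling adaptor of myeloid receptors, 5 sites held between 12 and 115 reads at 60 min and none was 2-fold apart, while of its 9 bins 1 was higher at 3 hpi and 2 at 60 min.

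The list of cytokine and chemokine genes, which also holds the receptors Cxcr4, Ccr1 and Ccr2, the prostaglandin enzyme Ptgs2 and the inflammasome sensor Nlrp3, had 191 bins (35 of them at Cxcr4), 43.5% higher at 3 hpi and 8.38% at 60 min, beside 35.8% and 19% of all compared bins. Il1b, the inflammatory cytokine, had 6 of 9 bins higher at 3 hpi and none at 60 min. Its site 10.8 kb downstream of the TSS held 10 and 83 reads, its promoter 38 and 79 and the site 2.23 kb upstream 98 and 187. Il12b had 14 of 20 bins higher at 3 hpi and Il1rn, the IL-1 receptor antagonist, 9 of 13, with none at 60 min at either gene. Csf1 held both extremes of the list, with 41 and 4 reads at a site 54.1 kb upstream and 2 and 29 at one 12.5 kb upstream. At Il6 11 of 13 bins were within 2-fold.

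Lysosome, granule and matrix enzymes had 149 bins, 36.2% higher at 3 hpi, near the 35.8% of all compared bins, and 9.40% at 60 min, below 19%. Upstream of Elane, the neutrophil elastase gene, 5 and 59 reads were counted. At Ctsd, a lysosomal protease, the site 2.36 kb upstream held 9 and 51 reads, while those at 11.4 kb (54 and 75) and 15.8 kb (39 and 66) differed less. Lyz2, macrophage lysozyme, had 2 of 3 bins higher at 3 hpi.

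Genes of signal feedback, growth and survival had 330 bins, 39.4% higher at 3 hpi and 11.5% at 60 min, beside 35.8% and 19% of all compared bins. Of the 38 bins higher at 60 min, 11 were at Myc, where the reads kept to exons. At Dusp1, a phosphatase that shuts off MAP kinases, all 6 bins were higher at 3 hpi, with 31 and 121 reads at the site 4.04 kb upstream. Pim1, a survival kinase, had 9 of 10 bins higher at 3 hpi and Nfkbia, the NF-κB inhibitor, 10 of 15. Gadd45a had 13 of 22 and Dusp6 19 of 37. Together these 4 genes, picked after their values were seen, had 1 bin higher at 60 min. Other genes of the list did not lean to 3 hpi in this way. Tnfaip3 had 6 of 29 bins higher at 3 hpi and 7 at 60 min, and Zfp36 2 and 0 of 14. Near Cdkn1a, the cell cycle inhibitor p21, a site held 3 and 35 reads. Among inhibitors of cytokine signalling, Socs1 had 3 of 6 bins higher at 3 hpi and 1 at 60 min, Socs2 0 and 1 of 10, Socs3 0 and 4 of 12, and no bin was nearest to Cish. Classic targets of C/EBP factors in liver and fat had 54 bins, 53.7% higher at 3 hpi and 5.56% at 60 min, beside the same 35.8% and 19%. Only 9 of the 20 listed genes had a bin, and most bins lay at Cd36 and Adipoq. Cd36 had 16 bins, 8 higher at 3 hpi and 2 at 60 min, and Adipoq 14, 7 higher at 3 hpi and 0 at 60 min. The acute-phase gene Hp had all 4 of its bins higher at 3 hpi and Pparg, the master regulator of fat cells, 3 of 4. The lowest ratio of the list was found near Scd1, a fatty acid desaturase, with 58 and 35 reads.

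In the 34 windows of loci that the study displays lay 79 sites, with sites in overlapping windows counted once. Of these, 28 were 2-fold higher at 3 hpi and 7 at 60 min, and of all 27075 sites 36.5% and 18.9%. At Dusp1 all 4 sites were 2-fold higher at 3 hpi, and at Rassf3 4 of 5. The windows of Sla (6 sites), Evi2b (3), Plek (2) and Ehd1 (2) held sites within 2-fold only. Counts 2-fold higher at 60 min occurred at 1 site each of the Gbe1, Nfe2, Csf1r, Gadd45b and Csf1 windows and at both sites of 1 Fos window. The Gbe1 site held 42 and 11 reads and lay between sites with 172 and 188 and with 52 and 76 reads.

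**Figure D5:**
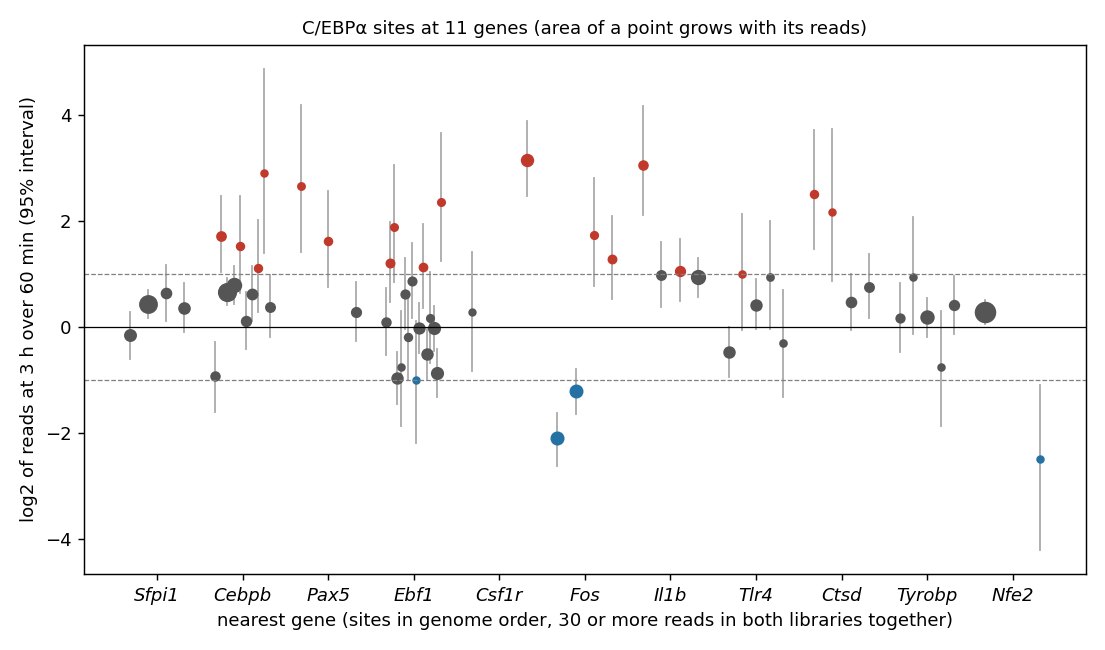
Log2 of C/EBPα reads at 3 hpi over 60 min for every site with 30 or more reads in both libraries together at 11 of 12 listed genes (Cebpa had no such site), in genome order within a gene, with 95% intervals for counting error (lines) and a point area that grows with the reads. Fos spans both directions, from 185 and 43 reads 26.1 kb upstream to 12 and 40 reads 15.5 kb downstream, while the Tyrobp points lie within 2-fold.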

How the data were processed

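Reads from the immunoprecipitated DNA of C10 cells (C/EBPα, and for comparison C/EBPβ and PU.1) were deposited as aligned positions, 1 line per read, so a value here is a count of reads. Base calls came from the Illumina pipeline, the authors allowed no mismatch in the alignment to mm9 (Bowtie or ELAND), and reads with several placements as well as identical reads were discarded, although 2.52% of the reads at 3 hpi still repeated a position and strand. Which aligner served which library, and the versions, are not given in the sources used here, and HOMER is named in the submitters' processing notes. Deposited reads ranged from 2903580 to 24917810 per library, with 19539227 at 60 min and 11416658 at 3 hpi, and no control library was subtracted.

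From the deposited reads, 1 read per position and strand was kept, 5′ ends were moved 75 bp inward, and the 19004890 reads left at 60 min on chromosomes 1 to 19 were thinned at random to 10842274 (57.0%). Reads were counted in 200-bp bins, bins with 10 or more reads at either time point were compared, and adjacent ones were joined to sites. Ratios are 3 hpi over 60 min with 1 read added to each for medians, and a call is a 2-fold ratio. Intervals are exact Clopper-Pearson intervals, or order-statistic intervals for medians, at 95%. A fold against a count of 0 is given as a bound with a floor of 3 reads. PU.1 at 0 hpi was counted over a bin and its neighbours. TSS distances and annotation came from protein-coding genes of GENCODE vM1 on mm9. Motifs were searched on both strands.

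Sites named are the 12 with the largest ratio in each direction (ranked by the interval bound nearest to equality), the 8 with the most reads, the extremes of each gene list, sites at 12 listed genes and in the windows of loci that the study displays, and the 5 genes with the most bins called in each direction. The bins, gene lists and motifs were chosen with earlier results of these data known, and the 3 STAT forms, TTGCGNAA, the MEF2-type element with its single forms and its comparison palindrome, ATGCAAAT, the exon check and single list genes beyond this rule were chosen after their values were seen. Of the sites that this rule names, 2 are not reported here. The counting and calling steps were tested on simulated data. Python 3.11.15 with numpy 2.4.6, pandas 2.3.3, scipy 1.17.1 and matplotlib 3.10.9 was used.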

Additional observations from a re-analysis of the deposited data

How the results depend on the processing

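The median log2 ratio stayed above 0 in its 18 alternatives, and the order of the PU.1 shares of both directions turned for 4-fold calls. Not among these alternatives were the 18656 bins with 10 or more reads at both time points, where the median was 0.00. With 20 or more reads, 18146 bins were compared, 4696 were higher at 3 hpi and 3474 at 60 min, with a median of 0.11. Joined bins gave 27075 sites, 9876 and 5113 of them called, and a median of 0.38. Bins chosen in one random part of the reads and compared in the rest gave 63904 bins, 22732 called at 3 hpi and 14478 at 60 min, and a median of 0.083. Bins of 400 bp gave 25493 called at 3 hpi and a median of 0.63, and bins of 100 bp a median of 0.16. The median was 0.47 with all deposited reads, 0.32 without moving 5′ ends, 0.42 without thinning, 0.24 after the GC correction, 0.41 in bins with reads in other libraries of both read lengths, 0.32 with a pseudocount of 3, 0.30 after correction by 5-Mb block and 0.41 without chromosomes 5, 12 and 18 (the last pair added after seeing the data).

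The share of bins with TTGCNNAA at 3 hpi was 26.6% for 4-fold calls, and at 3 hpi and 60 min 28.9% and 22.8% after the GC correction, 35.4% and 27.3% with 20 reads, 49.6% and 43.3% with 200 bp added on each side, and 22.6% and 19.2% for bins chosen in a separate part of the reads. The share with PU.1 at 0 hpi was 23.0% and 20.2% for 4-fold calls, 24.3% and 31.1% after the GC correction, 24.8% and 33.0% with 20 reads, 47.2% and 52% with 5 PU.1 reads, and 23.2% and 23.5% for the separate part. The share with a STAT form at 60 min was 13.8% for 4-fold calls and 11.3% with 20 reads. The causes of these shifts were not tested. No paired analysis was possible because each time point has 1 library, and no replicate could be left out. The interval for counting error excluded equality in 10718 of the 15323 bins called at 3 hpi and in 5703 of the 8134 called at 60 min. It did not in the rest of the called bins, so weak bins are described as classes.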
